A study of Arabidopsis thaliana with 12 samples.

Results

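The levels of 10 genes of root hair growth were followed in whole wild type Arabidopsis thaliana seedlings that had been placed in Rose Bengal in the light. They were EXPA7, EXPA18, COBL9, RHD6, RSL4, PRP1, PRP3, MOP10, LRX1 and AGP3. All were chosen by name with earlier results of these libraries known. Their levels, changes and calls are therefore given as a description and carry no test. Of the 10 genes, 9 were among the 13307 genes of the deposited table. RSL4 (AT1G27740), a transcription factor that sets the length of the hair, was not analysed here.

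The seedlings were of the Col-0 ecotype, 2 weeks old, and were kept for 2 h at a light level given as 30 µE in Rose Bengal at 0 (called untreated), 10, 100 or 400 µM, with 3 libraries per dose. All groups were wild type, and all had first been equilibrated in water. The labels name Rose Bengal for these libraries and were followed. The study instead pairs them with DCMU, an inhibitor of photosynthesis. It does so in its list of data sets, read in order, in a figure legend and in legends of supplementary tables. Rose Bengal (RB) is a photosensitiser: in the light it passes energy to oxygen and so forms singlet oxygen. RNA of the whole seedling was made into MARS-seq libraries, which read the 3′ ends of polyadenylated RNA. Levels are therefore those of the seedling, and fewer root hair cells cannot be told apart from less RNA per root hair cell.

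A root hair is a long outgrowth of a single epidermal cell of the root. It grows only at its tip, where new wall is laid down and loosened while the flanks are strengthened, and it widens the surface over which water and minerals are taken up. The fate of the cell is set by a network that ends in the homeodomain factor GL2. In hair cells the bHLH factor RHD6 starts hair formation and acts before RSL4 and its relatives, which turn on genes for wall proteins. Many genes of hair cells carry a short promoter sequence, the root hair element, to which factors of the RSL4 kind bind.

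Library totals ran between 1499791 and 3608636 reads. A single read was worth between 0.262 and 0.615 counts per 1000000 reads (CPM) after TMM scaling, so a gene with a handful of reads has coarse values. The median log2 change over all genes lay between -0.04 and 0.02 at the 3 doses against untreated seedlings. The first component of the deviations from the dose means held 33.4% of their variance. Its highest scores went to 3 libraries: replicate 1 at 10 µM (0.560), replicate 1 at 100 µM (1, the largest, used as the scale), and replicate 2 at 400 µM (0.432). Scores within a dose balance around 0, and some on the other side were as large, with -0.586 for replicate 2 at 100 µM. The 5 marker genes of leaf mesophyll summed to between 23529 and 24320 CPM in untreated seedlings and 18460 and 21199 CPM at 10 µM. Their sums were between 16853.5 and 20111 CPM at 100 µM and 18801 and 24225 CPM at 400 µM. All libraries at 10 and 100 µM thus lay below the untreated ones. RBCS1A made up most of the sum (mean 17780 CPM in untreated seedlings) and changed by log2 -0.32 at 10 µM and -0.45 at 100 µM. CAB1, at 4416 CPM, changed by -0.14 and 0.03. The log2 change was negative for 5 of the 5 genes at 10 µM and 4 at 100 µM.

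The promoters of 5 of the 10 genes held a match to the root hair element, searched for on both strands between 250 bases before and 50 bases after the annotated start of the gene. Each stretch below is the strand of the gene, 5′ to 3′, with the match in capitals and up to 30 bases on either side, from the RefSeq TAIR10.1 assembly. They are shown because the 5 genes share this element.
EXPA7, chr1:4276397-4276473, plus strand: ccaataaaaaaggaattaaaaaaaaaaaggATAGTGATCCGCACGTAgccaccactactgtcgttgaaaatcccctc
EXPA18, chr1:23331493-23331562, plus strand: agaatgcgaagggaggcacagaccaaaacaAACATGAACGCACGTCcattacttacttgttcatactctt
PRP1, chr1:20504742-20504818, plus strand: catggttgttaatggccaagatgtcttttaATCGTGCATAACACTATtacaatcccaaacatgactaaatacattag
PRP3, chr3:23182525-23182601, plus strand: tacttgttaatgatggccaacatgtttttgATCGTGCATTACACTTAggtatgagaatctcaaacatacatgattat
LRX1, chr1:4069869-4069944, plus strand: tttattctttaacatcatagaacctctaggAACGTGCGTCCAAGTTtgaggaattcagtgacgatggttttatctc

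In EXPA7 the match began 78 bases and ended 62 bases before the start. In EXPA18 one match lay 40 to 25 bases before the start and another lay past it. In PRP1, PRP3 and LRX1 the match read on the opposite strand and began 129, 167 and 93 bases before the start. No match was found in the windows of COBL9, RHD6, RSL4, MOP10 and AGP3. Over all protein-coding genes, 238 of 27443 windows (0.867%) held a match, and 111 of 12984 windows (0.855%) did so among genes of the count table. The element is a sequence carried by many genes of hair cells, and the genes followed here were chosen by name as root hair genes. Matches among them are therefore no independent finding. Their share was not tested against the shares over all genes, and no enrichment is read from it. A match describes the letters of the window and was not tested as a binding site.

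**Figure D1:**
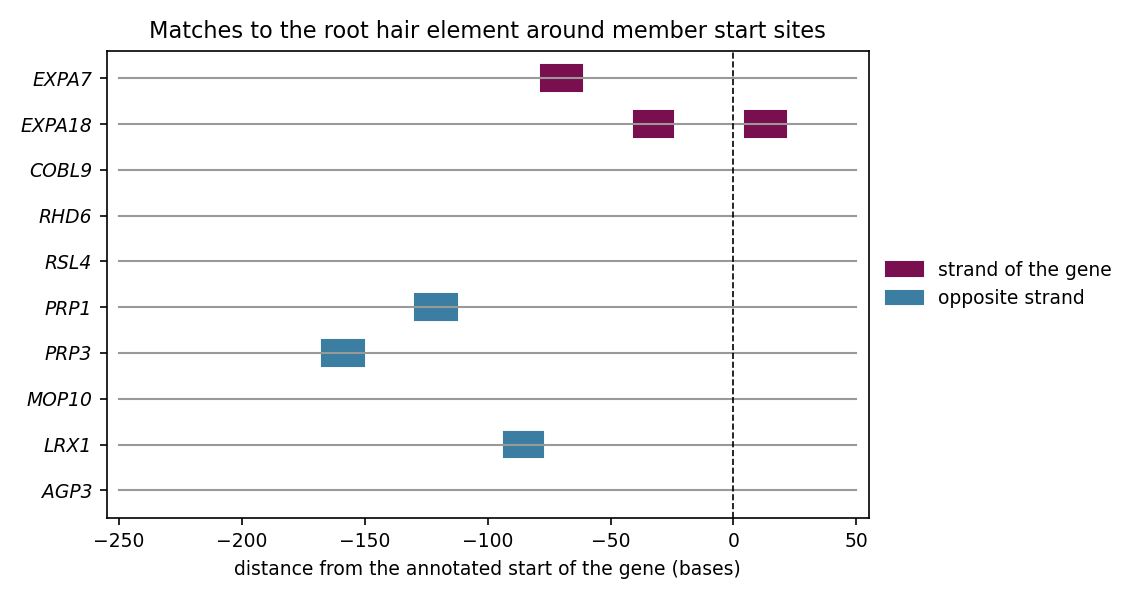
Positions of matches to the root hair element relative to the annotated gene start (0, dashed line), in bases, for the 10 genes, each searched along the grey line. A match is seen in 5 genes, on the strand of the gene or on the opposite strand, and EXPA18 holds 1 on either side of the start.

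Of the 9 measured genes, all had a level below that of untreated seedlings at every dose in the fit, and most were called lower, where called means an adjusted p under 0.05 with the quasi-likelihood test of edgeR, adjusted over all genes by the Benjamini-Hochberg method. At 10 µM, 6 of the 9 were called lower, where 1.07% of all genes were called lower and 2.66% higher. The median log2 change of the 9 genes was -2.00, and their median level was 27.0% of untreated. Since the genes were picked with these contrasts known, nothing is read from the counts.

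At 100 µM, 7 of the 9 genes were called lower, where 4.22% of all genes were called lower and 7.32% higher. The median log2 change was -3.24 (-3.07 with PRP1, which had no reads, set at the bound given by 3 reads over the group), and the median level was 10.2% of untreated. At 400 µM, 8 were called lower and RHD6 was the exception, where 6.43% of all genes were called lower and 9.11% higher. The median log2 change was -5.66, or -4.78 with the 3 genes without reads at their bound, and the median level was 0.951% of untreated.

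Summed over the 9 genes, the level was 303, 277 and 279 CPM in the untreated libraries, 49.7, 85.8 and 51.1 CPM at 10 µM, 30.4, 45.6 and 42.9 CPM at 100 µM, and 12.5, 8.90 and 8.89 CPM at 400 µM. The groups at 10 and 100 µM did not overlap, and the 3 libraries at 400 µM were all below the rest. Each library at 400 µM had 4 or 5 of the 9 genes at 0 reads. Every library lay below every untreated library for 7 genes at 10 µM, 7 at 100 µM and 8 at 400 µM, where the same held for 9.7%, 13.4% and 17% of all genes.

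**Figure D2:**
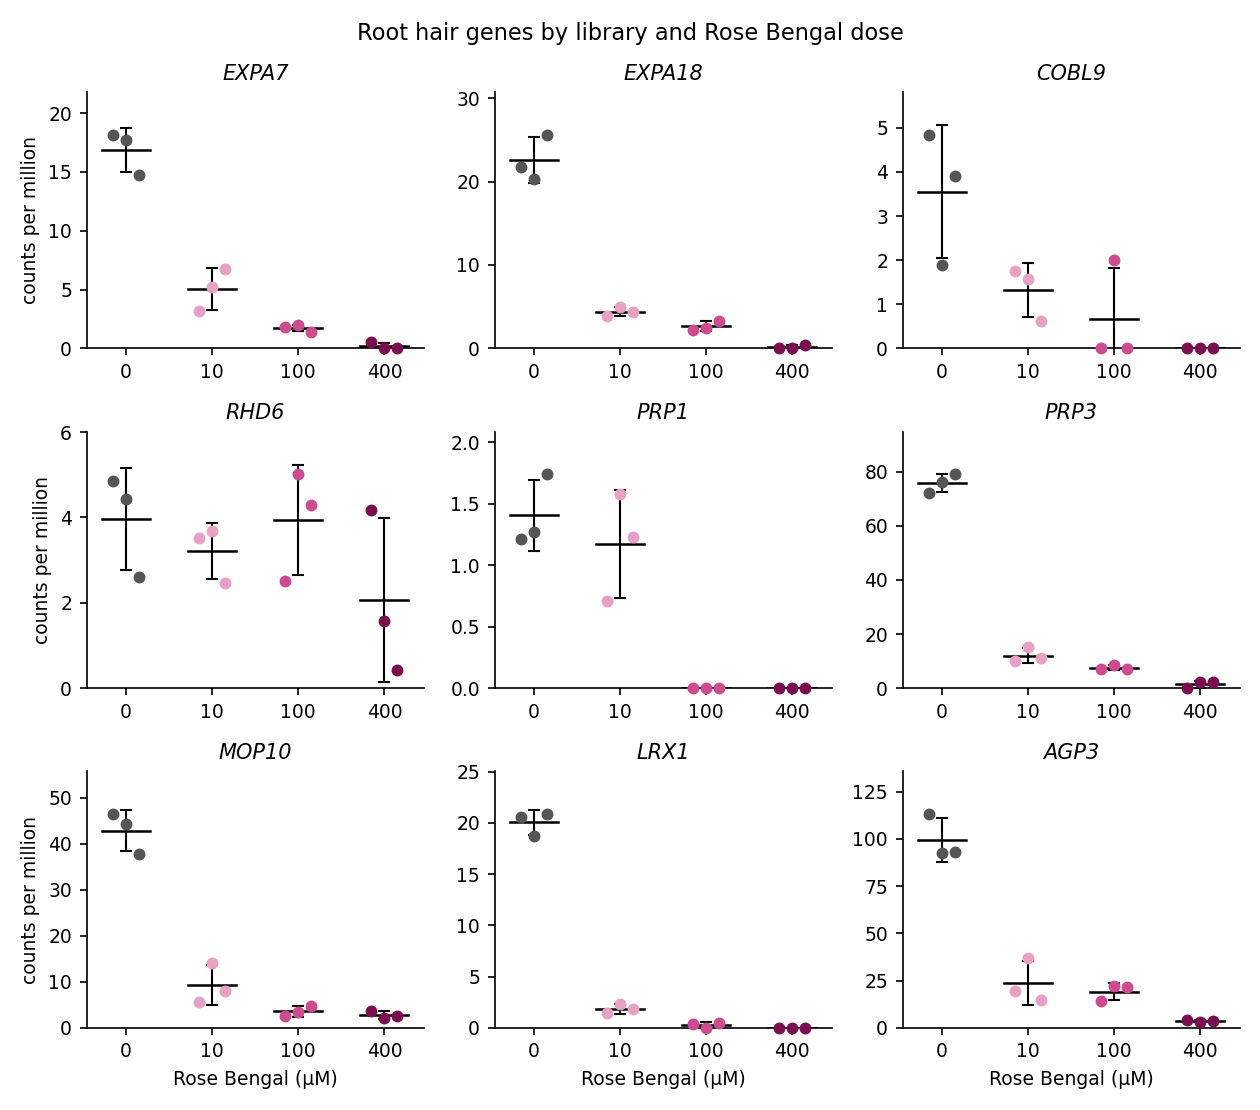
Level of each measured gene in CPM (vertical axis from 0, scaled to each gene) by Rose Bengal dose in µM. Points are libraries, horizontal lines are means and bars are the SD over 3 libraries, cut at 0. EXPA7, EXPA18, PRP3, MOP10, LRX1 and AGP3 lie below all untreated libraries at every dose, PRP1 only at 100 and 400 µM, and RHD6 at no dose.

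EXPA7 (AT1G12560, chr1:4276505-4277969, 3 exons) and EXPA18 (AT1G62980, chr1:23331563-23333246, 3 exons) encode alpha-expansins, which loosen the wall of the growing hair. EXPA7 had 18.2, 17.7 and 14.8 CPM in untreated libraries, 3.17, 5.25 and 6.77 CPM at 10 µM, 1.79, 2.00 and 1.43 CPM at 100 µM, and 0.523, 0 and 0 CPM at 400 µM. The 4 doses did not overlap. The log2 change against untreated was -1.77 ± 0.35 (SE) at 10 µM, -3.24 ± 0.42 at 100 µM and -6.31 ± 0.62 at 400 µM. The value at 400 µM rests on 1 read, against 135 in untreated seedlings, which is 105-fold lower with a 95% counting interval of 18.6- to 4184-fold. Such intervals are exact binomial ones, take each read as independent and cover counting error only. The counts were not filtered on molecular identifiers, so repeated reads of 1 molecule could make the intervals too narrow.

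EXPA18 had 21.8, 20.3 and 25.6 CPM in untreated libraries, 3.87, 4.98 and 4.31 CPM at 10 µM, 2.15, 2.50 and 3.34 CPM at 100 µM, and 0, 0 and 0.423 CPM at 400 µM. It too had levels that did not overlap between any of the 4 doses. The log2 change was -2.33 ± 0.31 at 10 µM, -3.07 ± 0.35 at 100 µM and -6.73 ± 0.54 at 400 µM. A single read was left at 400 µM, against 177 in untreated seedlings, so the fall of 138-fold has an interval of 24.4- to 5477-fold. At 10 µM EXPA7 had 28.4% and EXPA18 20.1% of the untreated level, and at 400 µM 0.951% and 0.725%.

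LRX1 (AT1G12040, chr1:4069992-4072681, 1 exon) encodes a leucine-rich repeat extensin that sits in the hair's wall and is needed for its shape. It had 20.6, 18.7 and 20.8 CPM in untreated libraries and 1.41, 2.36 and 1.85 CPM at 10 µM. At 100 µM it had 0.358, 0 and 0.477 CPM, and at 400 µM no reads in any library. It was the gene furthest below untreated at 10 µM, at 9.71% of the untreated level, with a log2 change of -3.35 ± 0.39. At 100 µM 2 reads were left, against 158 in untreated seedlings, 68.5-fold lower with an interval of 18.7- to 571-fold. At 400 µM the level was at least 41.0-fold lower, taking 3 reads over the group as the limit that 0 reads allow.

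PRP3 (AT3G62680, chr3:23182722-23184042, 2 exons) and PRP1 (AT1G54970, chr1:20504901-20506504, 2 exons) encode proline-rich proteins of the wall. PRP3 had 72.3, 76.3 and 79.0 CPM in untreated libraries, 9.86, 15.2 and 11.1 CPM at 10 µM, 7.15, 8.51 and 7.16 CPM at 100 µM, and 0, 2.095 and 2.12 CPM at 400 µM. The 4 doses did not overlap. The log2 change was -2.62 ± 0.25 at 10 µM, -3.32 ± 0.27 at 100 µM and -5.66 ± 0.36 at 400 µM, where 9 reads stood against 602 in untreated seedlings.

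PRP1 was measured at a much lower depth, with 3, 4 and 4 reads in untreated libraries, 2, 6 and 2 at 10 µM and none in any library at 100 or 400 µM. In CPM these were 1.21, 1.27 and 1.74 in untreated libraries and 0.704, 1.57 and 1.23 at 10 µM. The untreated and 10 µM libraries overlapped, with a log2 change of -0.23 ± 0.85 at 10 µM. Against the 11 untreated reads, the counting interval for the fall began at 2.18-fold at 100 µM and 1.96-fold at 400 µM. With 3 reads over the group as the limit, the falls were 3.18-fold and 2.86-fold. PRP1 was called lower at both doses. Leaving out any 1 of the 3 untreated libraries took both of these calls away, as did leaving out replicate 2 or 3 at 10 µM. The call at 100 µM was also lost without any 1 library of that dose, and the call at 400 µM without any 1 library of that dose.

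MOP10 (AT5G05500, chr5:1629610-1630478, 1 exon), of the Pollen Ole e 1 and extensin family, is a proline-rich protein of hair elongation. It had 46.4, 44.3 and 37.8 CPM in untreated libraries, 5.64, 14.2 and 8.00 CPM at 10 µM, 2.50, 3.51 and 4.77 CPM at 100 µM, and 3.66, 2.095 and 2.54 CPM at 400 µM. Untreated libraries stood above all the others, and those at 400 µM overlapped those at 100 µM. The log2 change was -2.15 ± 0.28 at 10 µM, -3.59 ± 0.33 at 100 µM and -3.94 ± 0.35 at 400 µM. At 400 µM 6.38% of the untreated level was left.

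AGP3 (AT4G40090, chr4:18580827-18581696, 1 exon) encodes an arabinogalactan protein, a heavily glycosylated protein of the cell surface. It had 113, 92.4 and 92.9 CPM in untreated libraries, 19.7, 37.0 and 14.8 CPM at 10 µM, 13.95, 22.0 and 21.5 CPM at 100 µM, and 4.18, 3.14 and 3.39 CPM at 400 µM. The libraries at 10 and 100 µM overlapped, while those at 400 µM were below all the others. The log2 change was -2.00 ± 0.25 at 10 µM, -2.39 ± 0.26 at 100 µM and -4.78 ± 0.33 at 400 µM.

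COBL9 (AT5G49270, chr5:19971884-19974530, 2 exons; SHV2 in RefSeq) encodes a membrane-anchored COBRA-like protein of tip growth. It had 12, 6 and 9 reads in untreated libraries, 5, 6 and 1 at 10 µM, 0, 4 and 0 at 100 µM, and 0 in all 3 libraries at 400 µM. These are means of 3.55 ± 1.50 CPM in untreated seedlings, 1.32 ± 0.615 CPM at 10 µM and 0.668 ± 1.16 CPM at 100 µM (SD, n = 3). COBL9 was not called at 10 µM (log2 change -1.29 ± 0.84) or at 100 µM (-2.44 ± 0.98). RB 100 µM replicate 2 held all 4 reads of that dose. Without that library, the gene had no reads at 100 µM and was called lower there by edgeR. At 400 µM COBL9 was called lower, with a counting interval for the fall that began at 5.32-fold. With 3 reads over the group as the limit, the fall was 7.01-fold.

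RHD6 (AT1G66470, chr1:24795214-24797015, 5 exons), the factor at the head of the hair programme, was the gene that did not follow the others. It had 4.84, 4.43 and 2.60 CPM in untreated libraries, 3.52, 3.67 and 2.46 CPM at 10 µM, 2.50, 5.01 and 4.29 CPM at 100 µM, and 4.18, 1.57 and 0.423 CPM at 400 µM. All doses overlapped the untreated libraries. The log2 change was -0.27 ± 0.54 at 10 µM, -0.05 ± 0.54 at 100 µM and -0.99 ± 0.60 at 400 µM, and none was called. With 12 reads at 400 µM and 32 in untreated seedlings, the counting interval for the fall at 400 µM runs from 1.04- to 4.43-fold, so this depth does not show that the level was unchanged.

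**Figure D3:**
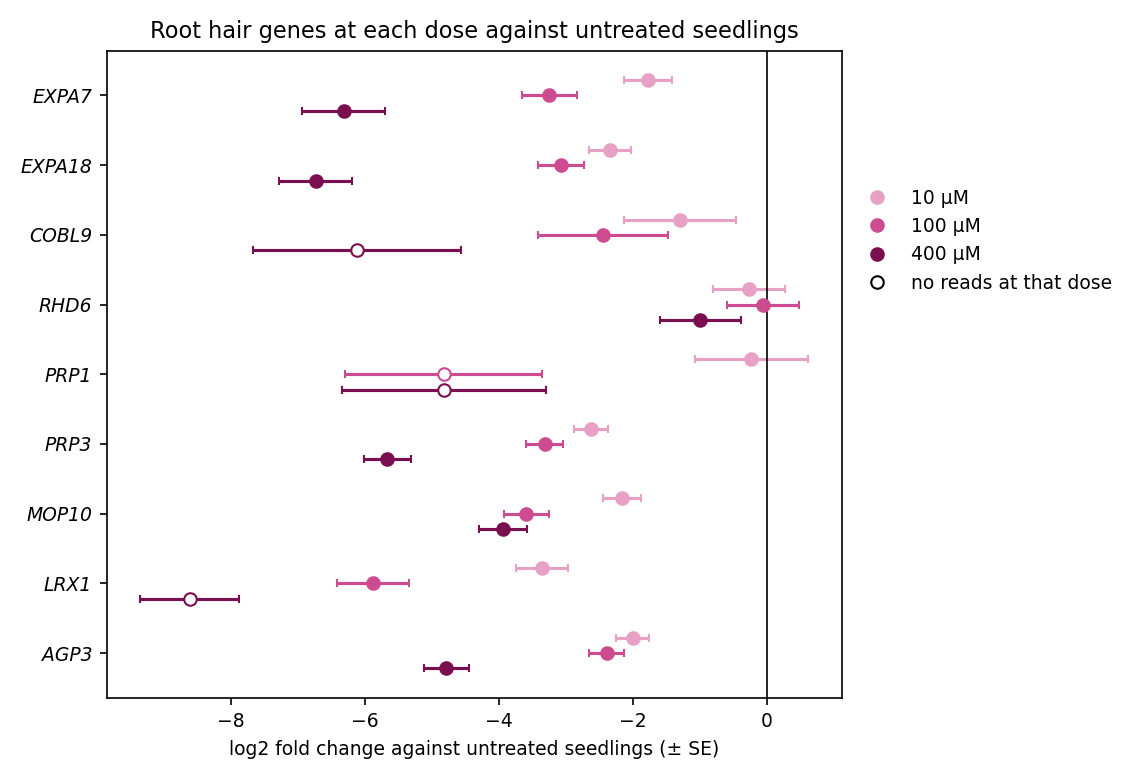
Log2 fold change against untreated seedlings (horizontal axis) of each measured gene at 10, 100 and 400 µM. Bars are ± SE, worked out from the F statistic of the fit over 12 libraries. Open points mark a dose with no reads, where the fitted value depends on the prior count and is no bound. LRX1 is furthest left at every dose, and RHD6 stays between -0.99 and -0.05.

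Between treated doses the values of the 9 genes mostly went on downward, but few of these steps were called. At 100 against 10 µM, MOP10 alone was called, with a log2 change of -1.44 ± 0.37, where 1.5% of all genes were called lower. At 400 against 100 µM, AGP3 alone was called, at -2.39 ± 0.37, where 0.0301% of all genes were, and the call was lost without any 1 of the 3 libraries at 400 µM and without replicate 2 or 3 at 100 µM. At 400 against 10 µM, 6 genes were called lower (EXPA7, EXPA18, PRP3, MOP10, LRX1 and AGP3), where 3.01% of all genes were. The median log2 change in that step was -4.40, or -1.99 with the genes without reads at 400 µM at their bound.

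The later steps had other sizes in some genes than in others. For AGP3, the log2 change was -0.39 ± 0.27 at 100 against 10 µM and -2.39 ± 0.37 at 400 against 100 µM. PRP3 had -0.69 ± 0.30 and -2.34 ± 0.46 for the same steps, and EXPA18 had -0.74 ± 0.40 and -3.66 ± 0.76. MOP10 ran the other way, with -1.44 ± 0.37 for 100 against 10 µM and -0.35 ± 0.47 for 400 against 100 µM. Differences between genes in these steps were not tested. In RB 10 µM replicate 2 all 9 genes stood above their mean at that dose; without that library MOP10 was no longer called at 100 against 10 µM (log2 change -0.90) or at 400 against 10 µM (-1.25), and the change of AGP3 at 100 against 10 µM was 0.11. The MOP10 call at 100 against 10 µM was also lost without any 1 of the 3 libraries at 100 µM and without untreated replicate 1 or 2.

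Across the 12 libraries, the log2 CPM of EXPA7 followed the mean of the other members most closely (Pearson r = 0.977), then EXPA18 (0.969), AGP3 (0.967), MOP10 (0.947), PRP3 (0.935), LRX1 (0.930), COBL9 (0.867) and PRP1 (0.826). RHD6 had the lowest value, 0.448. These points share their libraries and doses, and the values describe likeness only.

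The transcripts of PRP1, PRP3, LRX1 and AGP3 were poor in guanine, the base that singlet oxygen oxidises most readily. Guanine made up 14.7% of the PRP1 and of the PRP3 transcript, 15.1% of LRX1 and 16.0% of AGP3, against a median of 22.0% over the tested genes, and all 4 were within the lowest 1.21% of them. The shares for MOP10 (19.2%), RHD6 (19.2%), COBL9 (21.2%), EXPA7 (21.6%) and EXPA18 (22.2%) were nearer the median. No stretch of 50 bases of any of these transcripts was shared with another gene's transcript.

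The genes whose profile over the 12 libraries was most like the mean profile of the 9 genes were, among 8647 genes averaging 5 CPM or more, AT4G08400 (r = 0.988), AT5G57625 (0.983), AT5G64100 (0.983), CYP83A1 (0.981), AT1G30870 (0.980), AT2G37130 (0.979), STR18 (0.978), DOX1 (0.978), LAC7 (0.977) and AT4G00165 (0.975). RefSeq names AT4G08400 a proline-rich extensin-like protein, and AT5G64100, AT1G30870 and AT2G37130 proteins of the peroxidase superfamily. AT4G08400 averaged 0.174 ± 0.302 CPM at 400 µM and 18.5 ± 3.77 CPM in untreated seedlings (SD, n = 3 each). AT1G30870 averaged 1.22 ± 1.09 CPM at 400 µM and 50.9 ± 9.80 CPM in untreated seedlings. LAC7, a laccase, averaged 6.76 ± 2.38 CPM at 400 µM and 88.8 ± 16.0 CPM in untreated seedlings. Others of the 10 fell much less, with log2 changes at 400 µM of -0.67 for STR18, -1.44 for CYP83A1 and -1.76 for AT2G37130. STR18 still averaged 255 ± 12.5 CPM at 400 µM, against 405 ± 19.5 CPM in untreated seedlings. A high r marks a like shape over the libraries and not a like size of fall.

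Other genes of the hair were taken from lists written by role. The lists were chosen with earlier results of these data known, so their counts are no independent test. Over 4 lists (growth regulators, tip growth machinery, wall genes and genes named root hair specific, or RHS), 39 genes besides the members were tested. At 10 µM edgeR called 4 lower and 0 higher (10 and 3 at an unadjusted p under 0.05, and 2 and 0 by DESeq2), where 1.07% of all genes were called lower and 2.66% higher. At 100 µM it called 6 lower and 2 higher, where 4.22% and 7.32% of all genes were, and at 400 µM 12 lower and 1 higher (30.8% and 2.56%), where 6.43% and 9.11% of all genes were. Without untreated replicate 3, 1 was called lower at 10 µM and 8 at 400 µM. The median log2 change of the 39 genes was -0.67 at 400 µM, against -0.04 over all genes.

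The RHS genes outside the members were lower in part: 4 of 9 were called lower at 400 µM, with a median log2 change of -4.09, or -1.76 with the 4 genes that had no reads at that dose at their bound of 3 reads over the group. Over all genes, 6.43% were called lower and 9.11% higher at 400 µM. RHS12, a pectinesterase, had 0 reads at 400 µM and 52 in untreated seedlings (adjusted p = 0.000316 by edgeR). RHS19, a peroxidase, averaged 0.523 CPM at 400 µM and 9.16 CPM in untreated seedlings (log2 change -4.09 ± 0.74, adjusted p = 0.000543). RHS14, a pectate lyase, and PERK13 (RHS10), a receptor kinase of the wall, were the other 2, with 0 and 2 reads at 400 µM against 14 and 24 in untreated seedlings (adjusted p = 0.0412 and 0.0480).

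Of 9 further wall genes of the hair, PERK13 among them, 4 were called lower and 1 higher at 400 µM. Over all genes, 6.43% were called lower and 9.11% higher at that dose. The xyloglucan endotransglucosylases XTH14, XTH26 and XTH12, which cut and rejoin xyloglucan, were lower: XTH14 had a mean of 16.7 CPM at 400 µM and 78.8 CPM in untreated seedlings (log2 change -2.24 ± 0.28, adjusted p = 7.07e-06), XTH26 changed by -4.43 ± 0.88 (adjusted p = 0.00133) and XTH12 by -4.83 ± 1.04 (adjusted p = 0.00268). All 3 were also called lower at 10 µM; of the list, DESeq2 called 2 lower at that dose, and edgeR called 1 without untreated replicate 3. XXT1, a xylosyltransferase that builds xyloglucan, was higher, with 93.9 CPM at 400 µM and 30.7 CPM in untreated seedlings (1.61 ± 0.20, adjusted p = 7.29e-06). The remaining 4 were not called at 400 µM: CSLD2 and CSLD3, cellulose synthase-like proteins, had log2 changes of 0.11 and -0.06, XXT2 had -0.20, and LRX2, the closest relative of LRX1, had 0.06 ± 0.46.

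Among 7 growth regulators besides RHD6, 2 were called lower at 400 µM, where 6.43% of all genes were. At 10 and at 100 µM, 0 of the 7 were called lower. LRL3, a bHLH factor of hair growth, had 3 reads at 400 µM and 72 in untreated seedlings (log2 change -4.10 ± 0.74, adjusted p = 0.000532). OBP4, a Dof factor that restrains hair growth, was lower by a smaller step (-0.58 ± 0.15, adjusted p = 0.0120). RSL2, a relative of RSL4, had 2 reads at 400 µM and 17 in untreated seedlings and was not called (adjusted p = 0.115). GTL1, a repressor of hair growth, was called higher at 100 µM (0.74, adjusted p = 0.0393) and not at 400 µM (0.66, adjusted p = 0.0577).

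Of 15 tip growth genes, 3 were called lower at 400 µM, where 6.43% of all genes were. At 10 and at 100 µM, 0 of the 15 were called lower. TRH1, a potassium transporter, changed by -1.13 ± 0.19 (adjusted p = 0.000220) and AHA7, a plasma membrane proton pump, by -2.40 ± 0.66 (adjusted p = 0.0167). ERU, a receptor kinase, had 0 reads at 400 µM and 17 in untreated seedlings (adjusted p = 0.0158). SCN1, which restricts the site of outgrowth, was not called (-0.80 ± 0.42, adjusted p = 0.241).

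Regulators of hair cell fate were looked at as a further list. Of 5 tested, 0 were called lower at any dose by edgeR or DESeq2 (0 also at an unadjusted p under 0.05). Over all genes, 1.07%, 4.22% and 6.43% were called lower at 10, 100 and 400 µM, and 9.11% were called higher at 400 µM. With 5 genes, nothing is read from a count of 0. CPC, a small MYB protein that promotes the hair fate, was called higher by edgeR at 400 µM and not by DESeq2, with 21.6 ± 3.81 CPM at 400 µM and 12.5 ± 0.806 CPM in untreated seedlings (log2 change 0.79 ± 0.26, adjusted p = 0.0447); the call was lost without any 1 of the untreated libraries. GL2 was not called (-0.71 ± 0.36, adjusted p = 0.218), nor were TTG1 (0.36 ± 0.15, adjusted p = 0.126) and MYB23, which had 3 reads at 400 µM and 0 in untreated seedlings.

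Relatives of the members that are not named for hair cells moved in both directions. Of 18 such genes, 3 were called lower and 4 higher at 400 µM, with a median log2 change of -0.13, where 6.43% of all genes were called lower and 9.11% higher. AGP1 rose to 518 CPM at 400 µM, against 125 CPM in untreated seedlings (2.05 ± 0.18, adjusted p = 9.7e-08), and AGP2 to 424 CPM, against 190.3 CPM (1.15 ± 0.15, adjusted p = 1.25e-05). The expansin EXPA10 (1.90 ± 0.39, adjusted p = 0.00161) and the leucine-rich repeat extensin LRX3 (0.62 ± 0.15, adjusted p = 0.00842) were also higher. PRP4 (-0.64 ± 0.17, adjusted p = 0.0152), AGP4 (-0.76 ± 0.22, adjusted p = 0.0249) and PRP2 (-0.81 ± 0.27, adjusted p = 0.0498) were lower. No other gene of the list was called at 400 µM, and the difference between these relatives and the hair members was not tested.

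Other genes of the count table with a root hair element in the same promoter window numbered 106, a list added after the members' values were seen. At 400 µM 10 of them were called lower (9.43%) and 13 higher (12.3%), with a median log2 change of -0.01, where 6.43% of all genes were called lower and 9.11% higher. Without untreated replicate 3, 6 were called lower, and DESeq2 called 6. The 4 of smallest p at 400 µM were AT3G01190, CAF1b, AT5G01380 and AT4G32870. AT3G01190, a peroxidase, was lower, with 6.31 ± 2.14 CPM at 400 µM and 69.0 ± 3.97 CPM in untreated seedlings (SD, n = 3 each), and so was AT4G32870, named in RefSeq for polyketide cyclases and lipid transport, with 97.7 ± 3.44 CPM at 400 µM and 266 ± 39.4 CPM in untreated seedlings. CAF1b, a deadenylase, was higher, with 182 ± 11.1 CPM at 400 µM and 38.6 ± 2.19 CPM in untreated seedlings, as was AT5G01380, with 87.2 ± 13.6 CPM at 400 µM and 17.9 ± 2.51 CPM in untreated seedlings.

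**Figure D4:**
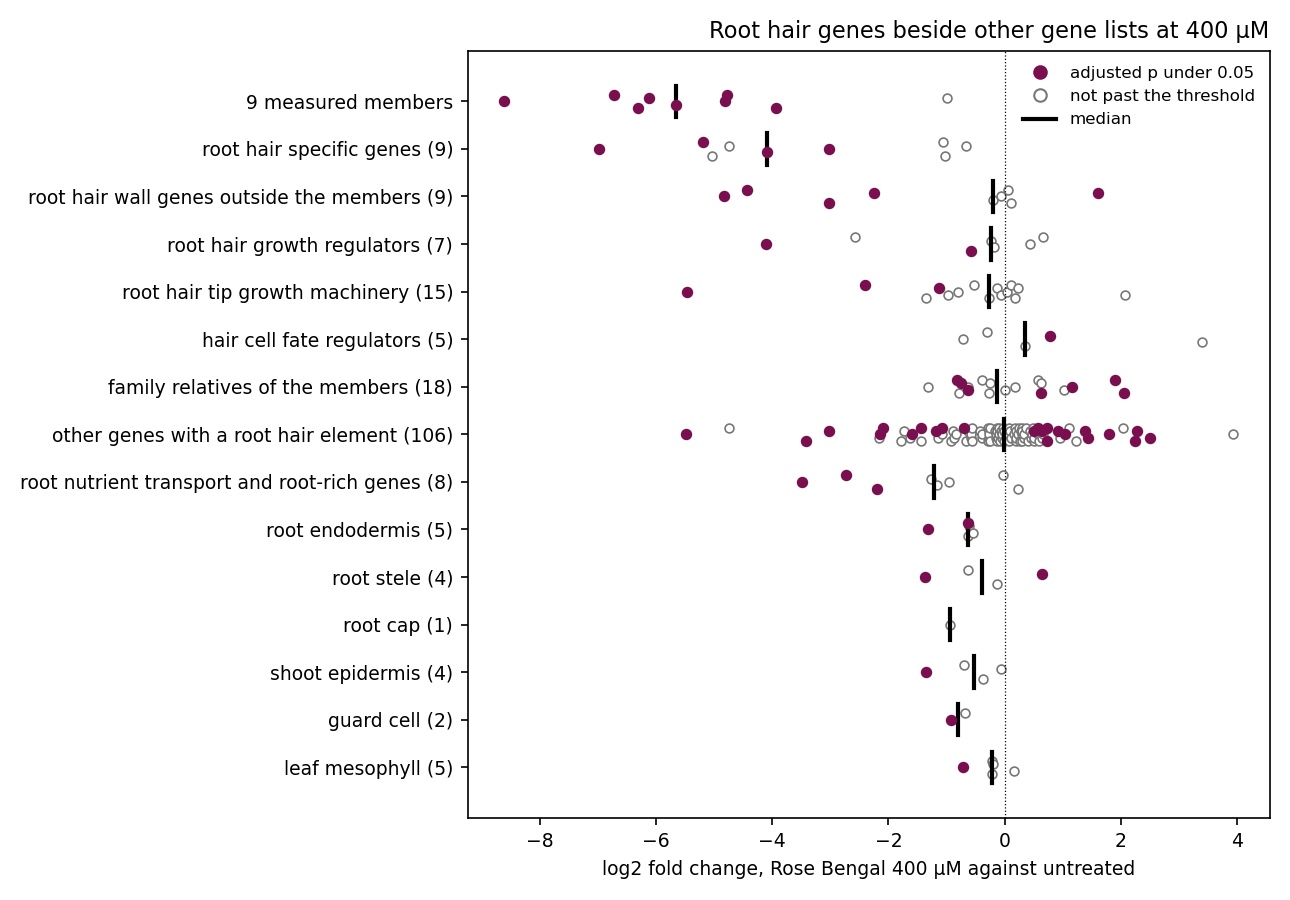
Log2 fold change at 400 µM against untreated seedlings (horizontal axis) of every measured gene of each list (number tested in brackets), with filled points for adjusted p under 0.05 and bars for list medians. The members' median is -5.66 (-4.78 with genes without reads at their bound), that of the RHS genes -4.09 (-1.76) and that of the other genes with a root hair element -0.01.

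Root-rich genes and markers of other cell types also moved. Over 6 other root lists, 4 of 18 tested genes were called lower and 0 higher at 10 µM, and likewise at 100 µM (22.2% lower at each dose). Over all genes, 1.07% and 4.22% were called lower and 2.66% and 7.32% higher at those doses. At 400 µM, 6 of the 18 were called lower and 1 higher (33.3% and 5.56%). Their median log2 change at 400 µM was -0.79, where 6.43% of all genes were called lower and 9.11% higher. The list of nutrient transport and root-rich genes, which marks no single tissue, gave 8 of the 18 genes. It gave 4 of the lower calls at 10 µM and 3 of those at 400 µM. Root uptake genes summed to between 132 and 166 CPM at 400 µM and between 390.0 and 453 CPM in untreated seedlings, with SULTR1;2, a sulfate transporter (-3.48, adjusted p = 9.76e-06), PHT1;1, a phosphate transporter (-2.20, adjusted p = 8.66e-07), and the aquaporin TIP2;3 (-2.74, adjusted p = 2.84e-05) called lower. Endodermis markers summed to between 75.8 and 95.1 CPM at 400 µM and between 123 and 183 CPM in untreated seedlings, and CASP1 (-0.64, adjusted p = 0.0319) and ESB1 (-1.31, adjusted p = 0.000152) were lower. Stele markers summed to between 74.4 and 94.6 CPM at 400 µM and between 84.2 and 86.0 CPM in untreated seedlings, with PHO1 lower (-1.36, adjusted p = 0.000576) and APL higher (0.64, adjusted p = 0.0198).

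The single root cap marker measured, SMB, had 6 reads at 400 µM and 15 in untreated seedlings. None of 3 root meristem markers was measured. The 2 cortex markers were left out because their identifiers did not carry the symbol in RefSeq. In the shoot, 1 of 4 epidermis markers, CER6, a wax enzyme, was lower at 400 µM (-1.35 ± 0.16, adjusted p = 3.32e-06 by edgeR). So were FAMA of 2 guard cell markers (-0.93, adjusted p = 0.00226) and LHCB2.1 of 5 mesophyll markers (-0.73, adjusted p = 0.00240). Over all genes, 6.43% were called lower at that dose. The part of these changes in the levels of the hair genes was not tested.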

How the data were processed

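The authors prepared MARS-seq libraries, trimmed reads with cutadapt 1.8.3, mapped them to Araport 11 with STAR and used HTSeq-count for reads per gene. The deposited raw counts are reads, without a filter on molecular identifiers. The authors' table also holds a normalized signal (counts divided by size factors) and regularized log2 values, which were not used. Each of its 13307 genes reached at least 6 reads in some library. The study's methods for RNA extraction describe biological replicates of several pooled whole seedlings; the labels do not say so of these libraries, and if they were not separate samples of seedlings, p-values cover only technical spread. Counts were fitted with edgeR 4.0.16 in R 4.3.3 (TMM, quasi-likelihood, 12 libraries in 1 fit, two-sided, Benjamini-Hochberg over all genes) and tested on simulated data. CPM used TMM-scaled totals. The members and lists were chosen with earlier results of these data known. From each list, the genes of smallest p at 400 µM, and all where 5 or fewer were called, are named. Likeness used log2(CPM + 1). Symbols, promoters and transcripts came from RefSeq TAIR10.1, in which 13214 identifiers (99.3%) matched. Alternatives were other scalings, a stricter filter, DESeq2 1.42.0, fits of 2 groups, a replicate block, a minimum fold of 2 and leaving out libraries.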

Additional observations from a re-analysis of the deposited data

How the results depend on the processing

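Counts of members called lower against untreated seedlings stayed between 6 and 8 under every alternative run. With each library left out in turn they were 6 at 10 µM, 6 to 7 at 100 µM and 7 to 8 at 400 µM, and 0 to 1 for 100 against 10 µM, 0 to 3 for 400 against 100 µM and 5 to 6 for 400 against 10 µM. Other hair genes of the 4 lists called lower ran from 1 to 5 at 10 µM, 6 to 9 at 100 µM and 8 to 13 at 400 µM, and other genes with a root hair element from 2 to 5, 6 to 10 and 6 to 10. All genes called ran from 313 to 638 at 10 µM, 1117 to 2026 at 100 µM, 1568 to 2254 at 400 µM, 226 to 1535 for 100 against 10 µM, 600 to 1375 for 400 against 10 µM and 0 to 116 for 400 against 100 µM, where all 12 libraries gave 6. For 100 against 10 µM, members called were 2 with library totals and 0 with only the 2 groups compared, and all genes called were 132 with only those groups, against 595. For 400 against 100 µM, DESeq2 called 2 members and 28 genes, the filter of 1 CPM in 3 libraries 11 genes, and the replicate block 10 genes. DESeq2 called 2 other hair genes at 10 µM and 6 genes with the element at 400 µM. A minimum fold of 2 left 316, 901 and 1244 genes at 10, 100 and 400 µM, 287 for 100 against 10 µM, 560 for 400 against 10 µM, and 2 genes with the element at 10 µM. Without replicate 1 at 10 µM, replicate 1 at 100 µM, and replicate 2 at 400 µM, left out together after seeing the data, 2369 genes were called at 100 µM (1535 with them), 1199 for 100 against 10 µM and 130 for 400 against 100 µM, with 2 members in the last, and 6, 6 and 7 members at 10, 100 and 400 µM. The cause was not tested.

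Some values near 0 changed sign. The log2 change of RHD6 at 100 µM was 0.0052 with the replicate block, ran from -0.28 to 0.22 with 1 library left out, and turned positive without untreated replicate 1 or 2 or replicate 1 at 100 µM; without the 3 libraries it was 0.21. That of PRP1 at 10 µM ran from -0.57 to 0.050 and was 0.051 without the 3 libraries. That of AGP3 at 100 against 10 µM ran from -0.62 to 0.11, the highest without RB 10 µM replicate 2. Whether replicate numbers pair the samples was not settled. Of pairs with the same number, 4 of 18 correlated above 0.1, as did 11 of 36 with other numbers. The highest r was 0.419 with the same number and 0.404 with other numbers. The replicate block took away the calls of PRP1 and no other call of a member. The AGP3 call at 400 against 100 µM was lost without any 1 of 5 libraries of those doses. The promoter share was 0.754% over the bases before the start only. Depth limits PRP1, COBL9 and RHD6 most, with 11, 27 and 32 untreated reads.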
